A study of Mus musculus with 17 samples.

Results

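The 34 genes described here encode splicing and mRNA-binding proteins of the hnRNP, FET and SR families, outside the H/F family to which hnRNPH2 belongs. They were taken by gene symbol from a list of family members. Their measured values were not used for this, but earlier results of these data were known. All 34 were found among the 55453 symbols of the expression table, and all 34 were among the 16265 genes with a mean of at least 1 TPM that could be tested. TPM is the share of a transcript, corrected for its length, among 1000000 transcripts of a sample. The list held 20 hnRNPs, 3 genes of the FET and TDP-43 group, and 11 SR genes.

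Heterogeneous nuclear ribonucleoproteins (hnRNPs) coat nascent transcripts, often repress the use of weak exons, and accompany mRNAs during export, transport along neurites and decay. SR proteins carry an arginine- and serine-rich tail and mostly favor exon inclusion by recruiting the spliceosome. FET proteins, such as EWSR1 and TAF15, and TDP-43 couple transcription to RNA processing, and several of them, like hnRNPA1 and hnRNPA2B1, are found in the cytoplasmic aggregates of motor neuron disease. Several proteins of these families, such as hnRNPA1, enter the nucleus through the import receptor transportin 1, which also carries hnRNPH2.

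RNA was measured by sequencing in the cortex of 17 male C57BL/6J mice, to ask how loss or disease-linked substitution of hnRNPH2 alters the transcripts of these related proteins. Hemizygous Hnrnph2-KO mice (n = 3) and hemizygous R206W mice (n = 3), with 3 wild-type controls of each line, were 8 weeks old. Hemizygous P209L mice (n = 3) and their 2 wild-type controls were 3 weeks old, so that line and age cannot be told apart there. The knockin alleles were made by editing the endogenous gene with a guide RNA and an oligonucleotide donor. The KO allele arose in the same work from an indel that shifts the reading frame to an early stop codon, so each mutant genotype here is 1 allele. The samples were bulk tissue, in which fewer cells of a type and less RNA per cell cannot be told apart. The p-values measure the spread between these mice only.

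The targeted gene matched the labels, with a log2 change of Hnrnph2 of -2.30 in KO mice (limma, adjusted p = 8.64e-06). Excitatory neuron markers summed to between 1304 and 2828 TPM in the 17 mice, while the 2 cerebellar markers, Gabra6 and Cbln3, were not among the tested genes. Their sum was 6.24 TPM in KO 1 and 0.15 to 0.38 TPM in the other mice. The counts and median of the KO comparison are given below without KO 1 as well. KO control 1 stood apart. Its mitochondrial genes took 20.1% of all TPM, against 10.7% to 15.4% in the other mice. It was the lowest of the 6 controls of 8 weeks for 33 of the 34 genes, all but Srsf10, and for 71.4% of all tested genes. The 34 genes were at a median of 71.9% of the mean of the other 5 controls in this mouse, and all tested genes at 73.5%. Median-of-ratios size factors set the typical gene equal between samples. After division by them the 34 genes were at a median of 95.5%, against 97.7% for all tested genes. This mouse was then the lowest of the 6 controls for 18 of the 34 (52.9%), against 36.7% of all tested genes. The main results that rest on this mouse are given with and without it.

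By mean level the 34 genes lay between percentiles 51.4 and 99 of all tested genes, with a median at 90.9. Their summed share was 0.490% of all TPM on average, of which the hnRNPs made up 0.309%, the SR genes 0.131% and Ewsr1, Taf15 and Tardbp together 0.0498%. Hnrnpa2b1, whose product represses splicing and binds trafficking elements of neuronal and glial mRNAs, was the highest of the 34 in 17 of 17 mice, with a mean level of 533 TPM. Srsf5, encoding an exon-definition factor of the SR family, followed at 346 TPM. Hnrnpk, a poly(C)-binding protein with KH domains, was at 332 TPM and could not be ranked against Srsf5, which was the higher in 9 of 17 mice. Ewsr1, at 278 TPM, and Hnrnpu, a chromatin-associated scaffold protein, at 271 TPM, were likewise not separable, since Ewsr1 was the higher in 9 of 17 mice.

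The low end was held by Taf15 at 37.4 TPM, Srsf4 at 36.4 TPM and Srsf12 at 16.2 TPM, and Srsf12, a small SR-related splicing repressor, was the lowest of the 34 in 17 of 17 mice. Of the other aggregation-linked genes, Tardbp, encoding TDP-43, was at 183 TPM. Among the 5 controls of 8 weeks other than KO control 1 of 8 weeks the coefficient of variation ran from 1.67% for Hnrnpdl to 9.05% for Hnrnpa0.

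**Figure D1:**
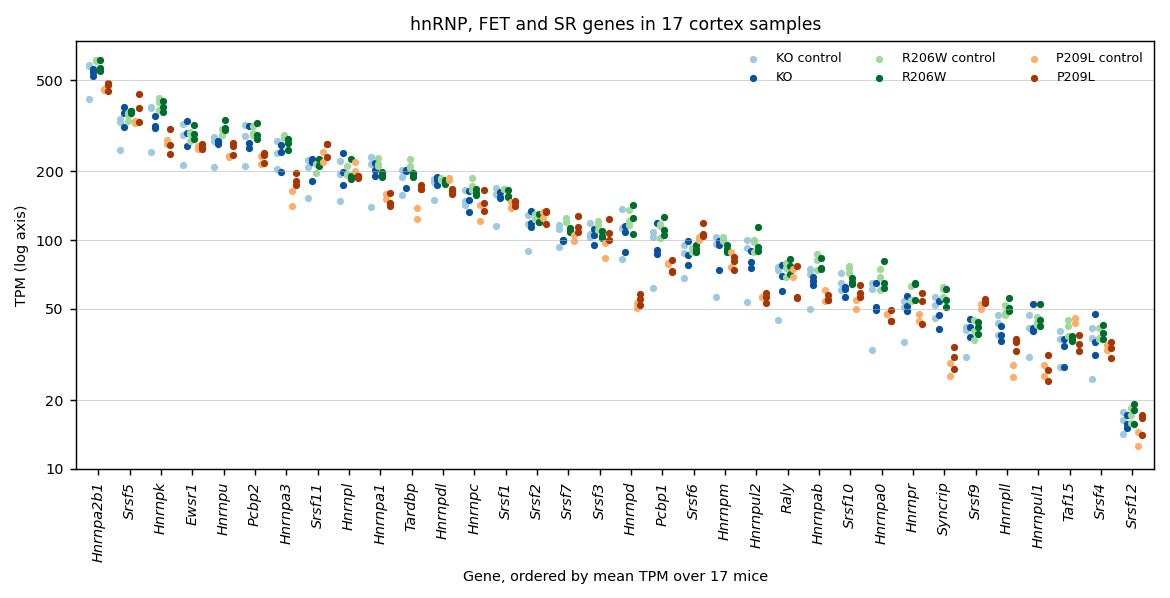
Level of each of the 34 genes in every mouse, in TPM on a log axis, with genes ordered by their mean over 17 mice and colors for the 6 groups. Hnrnpa2b1 (533 TPM) leads and Srsf12 (16.2 TPM) is lowest, and the orange and brown points of the P209L line fall below the rest for Hnrnpd and Syncrip and above them for Srsf9.

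The GENCODE M21 annotation lists unproductive transcripts for many of these genes. A transcript tagged for nonsense-mediated decay was annotated for 20 of the 34 genes (58.8%), including 9 of the 11 SR genes, and for 28.1% of all tested protein-coding genes. SR genes are known to switch off their own output through such poison exons. A retained-intron transcript was annotated for 73.5% of the 34 and for 57.8% of the tested coding genes, and both kinds for 52.9% and 21.9%. The 34 genes also had more annotated transcripts, a median of 8.5 against 5, and the shares were not tested or adjusted for that. The deposited values sum all transcripts of a gene, so that productive and unproductive transcripts cannot be told apart in any comparison below.

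Promoters are shown for 5 members whose levels differed between 3 and 8 weeks in controls, Hnrnpd, Syncrip, Hnrnpa3 and Tardbp, which were lower at 3 weeks, and Srsf9, which was higher, so that genes that moved together can be set beside one that did not. They run from 250 bases before to 50 bases after the annotated start, were taken from RefSeq (GRCm38.p6), and are written 5′ to 3′ on the strand of the gene, with capitals marking any of the 7 motifs searched on both strands. Hnrnpd is at chr5:99978889-99979188 (minus strand), Syncrip at chr9:88482348-88482647 (minus strand), Hnrnpa3 at chr2:75659009-75659308 (plus strand), Tardbp at chr4:148626947-148627246 (minus strand) and Srsf9 at chr5:115326927-115327226 (plus strand).
Hnrnpd: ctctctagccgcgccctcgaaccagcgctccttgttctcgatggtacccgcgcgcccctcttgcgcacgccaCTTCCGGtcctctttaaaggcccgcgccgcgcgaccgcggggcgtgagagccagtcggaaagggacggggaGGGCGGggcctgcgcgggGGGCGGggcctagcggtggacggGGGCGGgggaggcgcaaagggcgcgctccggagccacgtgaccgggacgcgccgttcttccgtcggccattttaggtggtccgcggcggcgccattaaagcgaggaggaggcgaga
Syncrip: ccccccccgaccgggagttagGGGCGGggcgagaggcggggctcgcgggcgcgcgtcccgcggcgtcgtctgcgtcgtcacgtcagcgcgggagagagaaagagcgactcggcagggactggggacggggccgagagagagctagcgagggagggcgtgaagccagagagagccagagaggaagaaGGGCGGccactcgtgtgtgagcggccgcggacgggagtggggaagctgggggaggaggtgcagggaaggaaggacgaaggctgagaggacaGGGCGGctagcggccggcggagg
Hnrnpa3: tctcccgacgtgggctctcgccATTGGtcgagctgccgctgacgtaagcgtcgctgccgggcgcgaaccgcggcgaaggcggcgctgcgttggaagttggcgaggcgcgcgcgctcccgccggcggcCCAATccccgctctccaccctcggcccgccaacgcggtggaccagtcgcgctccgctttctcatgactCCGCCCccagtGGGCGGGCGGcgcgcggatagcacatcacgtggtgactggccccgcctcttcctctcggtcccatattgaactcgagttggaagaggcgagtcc
Tardbp: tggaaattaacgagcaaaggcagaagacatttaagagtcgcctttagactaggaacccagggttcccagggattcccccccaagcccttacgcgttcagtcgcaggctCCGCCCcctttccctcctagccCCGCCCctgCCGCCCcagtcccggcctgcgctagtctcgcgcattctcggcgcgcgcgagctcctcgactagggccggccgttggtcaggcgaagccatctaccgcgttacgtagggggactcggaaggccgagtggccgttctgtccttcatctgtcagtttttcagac
Srsf9: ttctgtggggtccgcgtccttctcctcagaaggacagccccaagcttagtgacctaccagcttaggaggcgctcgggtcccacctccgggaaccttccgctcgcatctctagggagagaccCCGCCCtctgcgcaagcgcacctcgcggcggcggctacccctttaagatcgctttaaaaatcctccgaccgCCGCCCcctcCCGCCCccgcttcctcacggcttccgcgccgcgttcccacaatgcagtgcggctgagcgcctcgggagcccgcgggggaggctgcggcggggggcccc

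The GC content of these promoters ran from 62.0% (Tardbp) to 72.3% (Hnrnpd and Syncrip), and the GC box (GGGCGG) occurred in each of them, both in the 4 genes that were lower at 3 weeks and in Srsf9, which was higher. Over the 32 members with a promoter in the RefSeq table, the GC box was present in 81.2%, against 63.7% of the promoters of tested coding genes and 35.6% of all promoters, and the median GC content was 68.5% against 61.0% for tested coding genes. A CCAAT box (CCAAT) was found in 46.9% of members, 38.1% of tested coding genes and 37.8% of all promoters. The ETS core (CCGGAAG) was found in 21.9%, 17.1% and 9.08%, and the YY1 core (ATGGCGG) in 18.8%, 8.02% and 4.13%, respectively. The TATA box (TATAAA) occurred in 12.5%, 6.86% and 14.1%, the NRF1 core (GCATGCGC) in 6.25%, 5.25% and 2.78%, and the CRE (TGACGTCA) in 0%, 3.08% and 1.78%. These matches describe letters and not binding. A GC box overlaps itself in runs such as that of Hnrnpa3. Hnrnpll and Hnrnpul2 are not included among the promoters.

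KO cortex was compared with its controls to ask whether loss of hnRNPH2 shifts its relatives. None of the 34 genes passed a test. By limma 0 of 34 passed an adjusted p under 0.05 and 0 of 34 an unadjusted p under 0.05, against 0.00615% and 4.08% of all tested genes. The KO and control mice overlapped for every one of the 34, whereas they did not overlap for 6.25% of all genes. Of the log2 changes, 23 were above 0, and their median was 0.080, against 0.064 over all genes. The 95% interval of the change lay within 0.5 on the log2 scale of 0 for 31 of the 34 genes. Without KO 1, the mouse with cerebellar markers, 26 changes were above 0 with a median of 0.067, against 0.075 over all genes, and again 0 of 34 passed either threshold.

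The smallest p-values in KO cortex belonged to Srsf5, Srsf10 and Hnrnpll. Srsf5 was at 359, 313 and 380 TPM in the KO mice and at 246, 329 and 337 TPM in the controls, where KO control 1 was the lowest value. Its log2 change was 0.21 (SE 0.127, adjusted p = 0.999, limma), and 0.070 without KO control 1. Srsf10, whose product turns into a general splicing repressor when dephosphorylated, was at 62.2, 61.0 and 56.6 TPM in KO mice and at 65.2, 71.5 and 60.6 TPM in controls, with a log2 change of -0.13 (SE 0.0923, adjusted p = 0.999). Hnrnpll, a paralog of the CA-repeat-binding Hnrnpl that controls exon skipping in lymphocytes, was at 36.1, 38.5 and 42.2 TPM against 38.6, 47.0 and 43.4 TPM, with a log2 change of -0.14 (SE 0.104, adjusted p = 0.999). In all 3 genes the KO and control values interleaved.

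The sign of the KO values rested on a single control. Without KO control 1, 31 of the 34 log2 changes were below 0, with a median of -0.10 against -0.059 over all genes. An unadjusted p under 0.05 was seen in 10.5% of all genes, in either direction, and in 4 of the 34 (11.8%). All 4 were lower, and 0 passed the adjusted threshold. These were Srsf7 (-0.19), Hnrnpk (-0.23), Hnrnpul2 (-0.24) and Hnrnpll (-0.21). With size factors and all 6 mice, 17 were above and 17 below 0, with a median of -0.0016. Neither the 23 positive values nor the 31 negative ones can be read as a direction of the family.

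**Figure D2:**
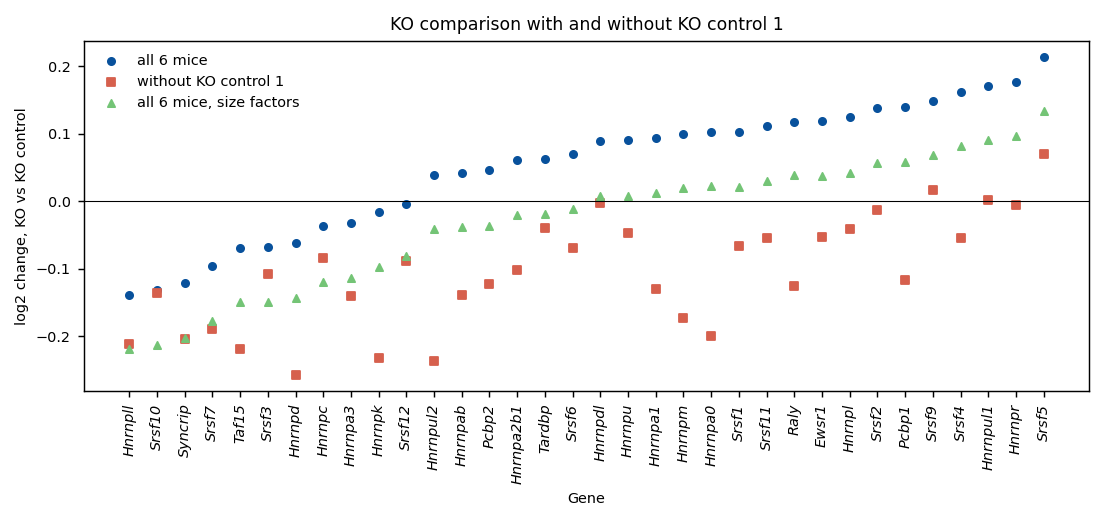
Log2 change of each of the 34 genes in KO against control cortex, with all 6 mice (blue circles), without KO control 1 (red squares) and with all 6 mice after scaling by size factors (green triangles). Leaving out 1 mouse moved the median from 0.080 to -0.10.

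Within the H/F family, Hnrnph1, the close paralog of Hnrnph2, had a log2 change of 0.52 in KO cortex (unadjusted p = 0.00102, adjusted p = 0.806), and of 0.37 without KO control 1 (unadjusted p = 0.00363, adjusted p = 0.407). Without KO 1 the Hnrnph1 change was 0.50 (unadjusted p = 0.00462, adjusted p = 0.994, limma). The highest value among the 34 genes was the 0.21 of Srsf5, which was 0.070 without KO control 1. Of 19 kinases, partners and import receptors of SR proteins 0 passed either threshold in KO. Of 25 core spliceosome genes 0 passed the adjusted threshold, and Sf3b5, a small subunit of the U2-associated SF3B complex, had an unadjusted p under 0.05 (log2 change 0.20). The core spliceosome genes lay above 0 in 22 of 25 cases with a median of 0.11, and without KO control 1 in 9 of 25 cases with a median of -0.028, with Sf3b5 then at 0.18 (unadjusted p = 0.0774). Of the 19 partner genes 10 lay above 0 with KO control 1 and 2 without it, where 4 had an unadjusted p under 0.05.

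R206W cortex likewise held no change that passed a test. By limma 0 of 34 genes passed the adjusted threshold and 0 of 34 the unadjusted one, against 0.0369% and 2.19% of all genes. The median log2 change was -0.0099, against 0.0096 over all genes, with values from -0.18 (Srsf10) to 0.10 (Hnrnpu). In 9 of the 34 genes the 3 R206W mice did not overlap the 3 controls, and all 9 were lower. Among all genes 16.2% did not overlap, in either direction. The share of all genes lying lower was not counted, so the direction of the 9 has no background. The 9 genes were the SR genes Srsf1, Srsf3, Srsf7 and Srsf10, the splicing repressors Hnrnpa1 and Hnrnpa3, and Hnrnpdl, Hnrnpm and Tardbp. The differences were small, and the 95% interval lay within 0.5 of 0 for 33 of the 34 genes. When the 2 R206W-line groups were fitted alone, 6 genes (17.6%) had an unadjusted p under 0.05, all lower, and 0 passed adjustment. Such a p-value was found for 9.16% of all genes, in either direction.

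Srsf10 was at 68.0, 64.2 and 65.5 TPM in R206W mice and at 77.1, 71.7 and 75.5 TPM in controls. Its log2 change was -0.18 (SE 0.0923, adjusted p = 1, limma). Srsf7, which also promotes mRNA export, was at 108, 113 and 111 TPM against 125, 119.7 and 121 TPM, with a log2 change of -0.14. Tardbp was at 196, 188 and 195 TPM against 206.1, 225 and 211 TPM, with a log2 change of -0.15 (SE 0.105, adjusted p = 1). In each of these genes the highest R206W mouse was below the lowest control, where an exact permutation test of 3 against 3 mice gives p = 0.1 and cannot give less.

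Set side by side, the KO and R206W effects did not differ by a test in any of the genes. Their difference, tested as an interaction, passed for 0 of 34 genes at either threshold, against 0.0307% (adjusted) and 2.29% (unadjusted) of all genes. The smallest p-values were those of Hnrnpll (-0.21, KO change minus R206W change), Tardbp (0.21) and Hnrnpa1 (0.27), with an adjusted p = 1 for each in limma. Without KO control 1 the KO change alone moved from -0.14 to -0.21 for Hnrnpll and from 0.063 to -0.040 for Tardbp. For Hnrnpa1 it moved from 0.093 to -0.13, beside an R206W change of -0.18. Over the alternatives the Hnrnpa1 difference ran from 0.0475 to 0.408. The 95% interval of the difference lay within 0.5 of 0 for 18 of the 34 genes. The difference was above 0 for 28 genes with all mice and for 9 without KO control 1. The median of the 34 differences moved from 0.078 to -0.078, and that over all genes from 0.053 to -0.066.

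P209L cortex showed log2 changes from -0.32 (Taf15) to 0.38 (Hnrnpll), with a median of 0.048 against 0.016 over all genes, and again no gene passed the adjusted threshold. By limma 0 of 34 passed it, against 0.0984% of all genes. At an unadjusted p under 0.05, 4 of 34 (11.8%) passed, against 7.46% of all genes. Hnrnpll, Tardbp and Srsf3 were higher and Taf15 was lower. The P209L and control mice did not overlap for 12 of the 34 genes, 9 higher and 3 lower, with 2 controls measured. Among all genes 24.9% did not overlap, in either direction, and the share in each direction was not counted. Without P209L control 2, 0 of 34 had an unadjusted p under 0.05, against 2.95% of all genes.

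Hnrnpll was at 35.9, 32.9 and 36.9 TPM in the P209L mice and at 28.5 and 25.1 TPM in their controls. The log2 change was 0.38 (SE 0.117), with an unadjusted p = 0.00477 and an adjusted p = 0.340 in limma. Tardbp was at 167, 166 and 173 TPM against 138 and 124 TPM, a log2 change of 0.37 (unadjusted p = 0.00684, adjusted p = 0.389). Both genes were higher in 3 of 3 mutants than in either control.

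Srsf3, the smallest SR protein and a regulator of its own poison exon, was at 124, 100.4 and 107 TPM against 96.9 and 83.1 TPM. Its log2 change was 0.29 (unadjusted p = 0.0261, adjusted p = 0.575), and its groups were separated by a narrow gap. Taf15, named after its values were seen, was at 32.6, 38.6 and 35.2 TPM in P209L mice and at 43.3 and 45.8 TPM in controls, a log2 change of -0.32 (SE 0.148, unadjusted p = 0.0454, adjusted p = 0.654). Ewsr1, also of the FET class, had a log2 change of 0.018. The exact permutation p of 0.2 for these 4 genes was the smallest that 3 mice against 2 allow.

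**Figure D3:**
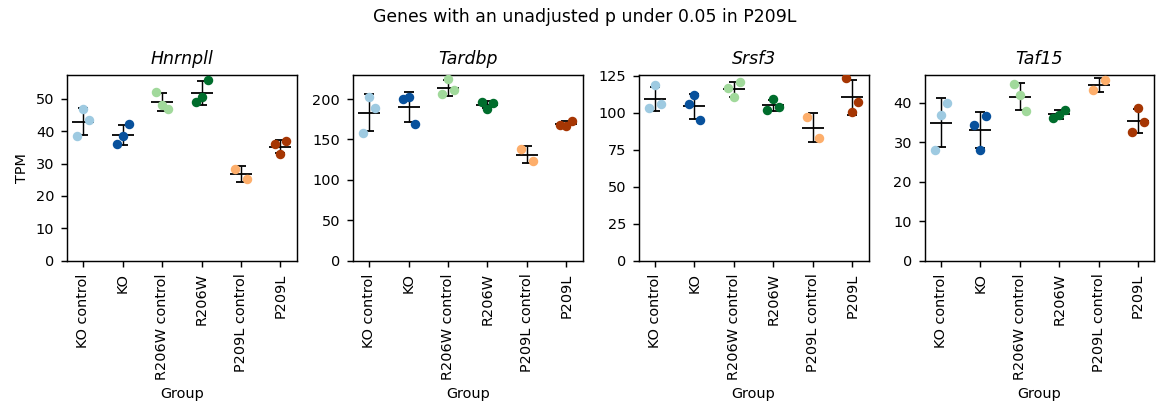
TPM of the 4 genes with an unadjusted p under 0.05 in P209L cortex, in every mouse of the 6 groups, with the mean and SD as black bars. The P209L mice lie above their controls for Hnrnpll, Tardbp and Srsf3 and below them for Taf15, and for Hnrnpll and Tardbp the P209L means (35.2 and 169 TPM) lie between those of their controls (26.8 and 131 TPM) and of the 8-week groups.

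The other 8 of the 12 genes without overlap were Hnrnpa3, Hnrnpu, Srsf6, Srsf7, Srsf9 and Srsf10, which were higher, and Hnrnpdl and Hnrnpl, which were lower. The 95% interval lay within 0.5 of 0 for 24 of the 34 genes, so that differences of that size were less well bounded here than in the other lines. Oligodendrocyte markers moved with this comparison. All 6 were lower in P209L (6 of 6 with an unadjusted p under 0.05, 0 adjusted), their sum was 2401 to 3460 TPM in mutants and 3964 to 5928 TPM in controls, and a choroid plexus list led by Ttr reached 1763 TPM in 1 control. Their part in the values of the 34 genes was not tested.

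**Figure D4:**
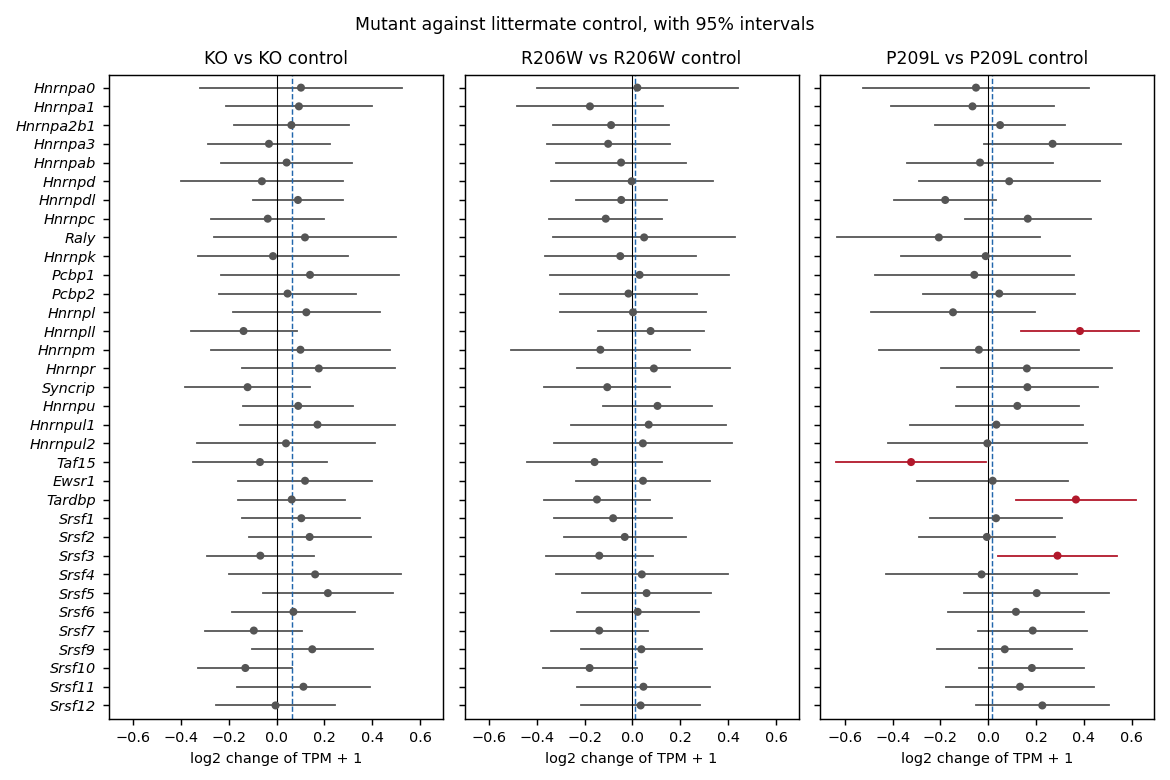
Log2 change of TPM + 1 of each of the 34 genes in each mutant against the controls of its line, with 95% intervals from limma. Red marks an unadjusted p under 0.05 (4 genes, all in P209L), none of which passed adjustment, and the dashed line is the median over all genes.

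The 2 knockins differed in sign for 5 genes whose groups did not overlap in either line. Hnrnpa3, Srsf3, Srsf7, Srsf10 and Tardbp were all lower in R206W and higher in P209L, which was the case for 14.7% of the 34 genes and for 1.5% of all genes. The opposite pattern was seen in 0 of 34 and in 0.658% of all genes. A test of the P209L change minus the R206W change was added after these values were seen. Past it were 0 of 34 genes at the adjusted threshold (0% of all genes) and 4 of 34 at the unadjusted one (3.98% of all genes), namely Tardbp, Srsf3, Srsf10 and Srsf7. The difference was 0.51 for Tardbp (unadjusted p = 0.00504, adjusted p = 1, limma), 0.43 for Srsf3, 0.36 for Srsf10 and 0.32 for Srsf7. Without P209L control 2, 1 of 34 had an unadjusted p under 0.05 (2.01% of all genes), and without P209L control 1 there were 6 (5.67% of all genes). The lines also differed in age, and the part of age in this was not tested.

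Among the partners of the SR proteins, Tnpo2, a nuclear import receptor related to transportin 1, had the largest change in both knockins, a log2 change of 0.75 in P209L (unadjusted p = 0.00346, adjusted p = 0.322) and of 0.58 in R206W (unadjusted p = 0.00873, adjusted p = 1). Clk1, a kinase of SR proteins, had a log2 change of 0.23 in P209L (unadjusted p = 0.0353). These were all of the 19 partner genes that had an unadjusted p under 0.05 in a knockin, and 0 of 25 core spliceosome genes did.

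Both groups of 8-week controls were compared to see how far wild-type mice of different lines differ. By limma 0 of 34 genes passed the adjusted threshold (0% of all genes), and 2 of 34 passed the unadjusted one against 3.12% of all genes. These were Hnrnpab, a regulator of neuronal mRNA transport and transcription, and Tardbp. Hnrnpab was at 86.5, 81.6 and 73.9 TPM in R206W controls and at 49.9, 74.9 and 70.9 TPM in KO controls, a log2 difference of 0.32 (adjusted p = 0.784). Tardbp differed by 0.23 and Hnrnpa3 by 0.25. All 34 genes were higher in the R206W controls with a median of 0.20, against 0.13 over all genes. Without KO control 1 only 23 of 34 were higher, with a median of 0.041. The 2 genes past the unadjusted threshold became 0 without KO control 1 (1.90% of all genes), and 14 both without KO control 2 (7.77% of all genes) and without KO control 3 (11.9% of all genes).

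The P209L controls at 3 weeks were compared with both groups of 8-week controls, a contrast of age and line together. Of the 34 genes 14 were called (41.2%), close to the 36.1% of all tested genes, so this count does not set the families apart. Most of the 14 were lower at 3 weeks. By limma 13 genes were lower (38.2%, against 24.8% of all genes) and 1 was higher (2.94%, against 11.3%). The median log2 difference of the 34 was -0.29, against -0.12 over all genes. Of the SR genes Srsf3 and Srsf10 were lower and Srsf9 was higher, and the other 11 lower genes were 10 hnRNPs and Tardbp.

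Hnrnpd, encoding AUF1, which marks AU-rich mRNAs for decay, had the largest difference. It was at 53.0 and 50.4 TPM in the P209L controls and at 82.2, 119 and 136 TPM (lowest, median and highest) in the 6 controls of 8 weeks, where the lowest was KO control 1. The log2 difference was -1.15 (SE 0.159, adjusted p = 1.27e-04, limma), which placed the 3-week controls at 44.1% of the 8-week mean, and the groups did not overlap. Its neighbor Hnrnpdl, a paralog 54.6 kb away on chromosome 5, was at 183 and 186 TPM against 150, 184 and 186 TPM, with a log2 difference of 0.057.

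Syncrip, encoding hnRNPQ, a component of dendritic mRNA granules, was at 29.0 and 25.6 TPM against 45.6, 56.5 and 62.2 TPM. Its log2 difference was -1.0 (SE 0.124, adjusted p = 6.44e-05). Its close relative Hnrnpr, which binds axonal mRNAs, had a log2 difference of -0.16 (adjusted p = 0.417). Among the A/B class, Hnrnpa3 was at 164 and 141 TPM against 204, 275 and 286 TPM, a log2 difference of -0.76 (adjusted p = 3.07e-04), and Hnrnpa1 (-0.39, adjusted p = 0.0450) and Hnrnpa2b1 (-0.31, adjusted p = 0.0459) were lower by less.

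Hnrnpll was at 28.5 and 25.1 TPM against 38.6, 47.0 and 52.2 TPM, a log2 difference of -0.76 (adjusted p = 1.19e-04), while its paralog Hnrnpl had 0.12 (adjusted p = 0.522). Tardbp was at 138 and 124 TPM against 158, 204 and 225 TPM, a difference of -0.59 (adjusted p = 7.21e-04). Hnrnpul1 (-0.61, adjusted p = 0.00614) and Hnrnpul2 (-0.62, adjusted p = 0.0127), paralogs of Hnrnpu that act in repair of DNA breaks, were also lower, and Hnrnpu itself had -0.23 (adjusted p = 0.107). Srsf10 (-0.42, adjusted p = 0.00306), Srsf3 (-0.32), Hnrnpk (-0.42) and Hnrnpc (-0.30), which binds uridine tracts near splice sites, completed the 13 lower genes. The exact permutation p = 0.0714, the least that 2 mice against 6 can give, was reached by Hnrnpd, Syncrip, Hnrnpa3, Hnrnpll, Tardbp, Srsf10 and Hnrnpul1, but not by Hnrnpul2 (p = 0.214), whose controls overlapped at KO control 1.

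Srsf9, an SR protein with a short tail, was named after its values were seen. It was at 52.6 and 50.2 TPM in the P209L controls and at 30.8, 40.2 and 45.0 TPM in the 8-week controls, with a log2 difference of 0.40 (SE 0.119, adjusted p = 0.0173). On TPM all 5 mice of 3 weeks were above all 12 of 8 weeks for Srsf9 and Srsf6 (2 of 34, against 6.49% of all genes). They were below them for Hnrnpd, Syncrip and Hnrnpa3 (3 of 34, against 10.2%). After size factors they were above for Srsf2, Srsf6, Srsf9 and Srsf11 (4 of 34, against 1680 of 16265 genes). They were then below for Hnrnpa1, Hnrnpd, Hnrnpul1, Hnrnpul2 and Syncrip (5 of 34, against 2121 of 16265), and no longer for Hnrnpa3.

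The sums of the classes are given as levels, and no test compared hnRNPs with SR genes. The 20 hnRNPs summed to 2573 to 2729 TPM in the 5 mice of 3 weeks and to 3079.5 to 3672 TPM in the mice of 8 weeks other than KO control 1, which was at 2390.1 TPM. The 11 SR genes summed to 1268 to 1468 TPM and to 1201 to 1366 TPM, respectively, with KO control 1 at 1004 TPM. On TPM the hnRNP sums were separated between ages apart from that mouse, and the SR sums overlapped. After size factors the hnRNPs summed to 2669 to 2998 at 3 weeks and to 2968 to 3339 at 8 weeks, with KO control 1 the lowest, and the SR genes to 1340.3 to 1558 and to 1183 to 1306, without overlap.

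**Figure D5:**
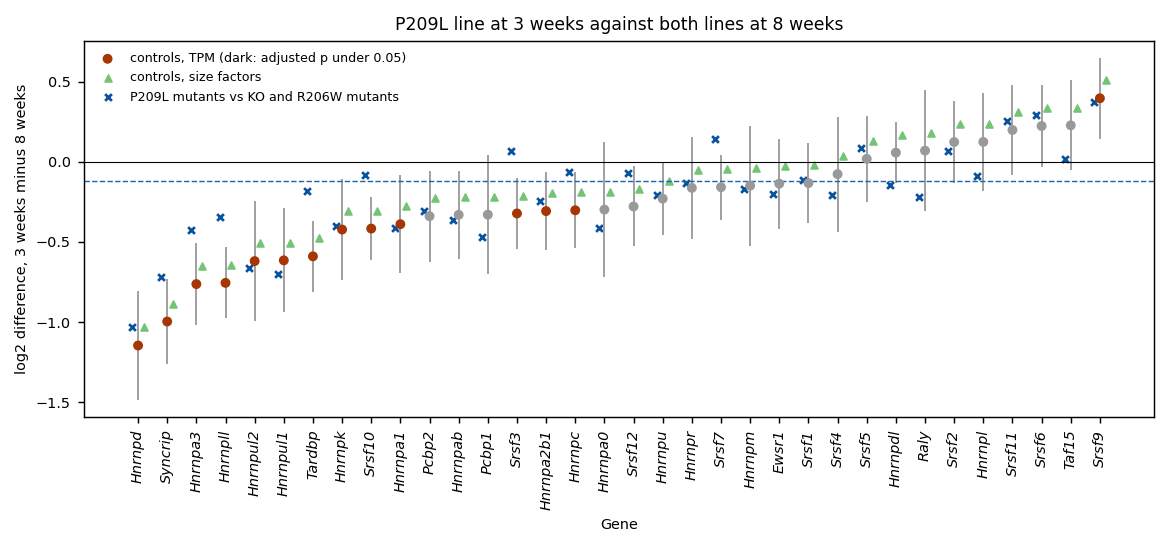
Log2 difference of each of the 34 genes between the P209L controls of 3 weeks and the controls of 8 weeks (circles with 95% intervals, dark where the adjusted p was under 0.05), the same after size factors (green triangles), and the difference between the P209L mutants and the KO and R206W mutants (blue crosses). The dashed line is the median over all genes (-0.12), and Hnrnpd (-1.15) and Srsf9 (0.40) are the extremes.

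The P209L mutants were separate mice of the same age, although of the same line. Compared with the 6 KO and R206W mice, they had the same sign for 13 of the 14 genes called among controls, the exception being Srsf3. Their values did not overlap those of the KO and R206W mice for 9 of these 14. The matching shares among all genes called between controls are not given here, so both counts lack a background. Over all 34 genes they lay entirely below for 14 (28.6% of all genes) and entirely above for 3 (11.7% of all genes). Hnrnpd was at 48.2% of the mean of the 8-week mutants, Syncrip at 59.7% and Hnrnpul1 at 60.7%, whereas Srsf9 was at 130% and Srsf6 at 123%. For Hnrnpll (77.7%) and Tardbp (88.0%) the mutants overlapped. The P209L controls enter both this age contrast and the P209L contrast above, where Hnrnpll and Tardbp were the highest, so that the 2 sets of values for these genes are not independent.

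The number and direction of these calls depended on scaling. With size factors, 15 genes passed (44.1%, against 43.8% of all genes). Of these, 10 were lower (29.4%, against 23.9% of all genes) and 5 higher (14.7%, against 20% of all genes). The median over all genes moved from -0.12 to -0.022. Srsf2, Srsf6, Srsf11 and Taf15 then joined Srsf9 as higher, with log2 differences of 0.24, 0.34, 0.31 and 0.34, and 11 genes were called under both scalings. Hnrnpa3, Hnrnpd, Hnrnpll, Syncrip and Tardbp were called in the same direction under 22 of 22 alternatives. Srsf10 and Hnrnpul1 were called under 21 of them, Hnrnpul2 and Srsf9 under 18, Srsf3 under 14, Hnrnpk under 13, Hnrnpa1 under 11, Hnrnpa2b1 under 9 and Hnrnpc under 8, with no change of sign. The number called was 23 without KO control 1 (50.3% of all genes), 9 without KO control 2 (31.4%), 7 without P209L control 1 (18.3%) and 6 without P209L control 2 (16.7%).

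Pseudogenes share sequence with some of these genes. At 90% identity over at least 300 bases, 16 of the 34 had a total of 79 processed or other pseudogene copies in the annotation, and the summed level of the copies was above 5% of the member for 6, namely Hnrnpa1 (24.3%), Srsf3 (18.5%), Hnrnpa3 (17%), Hnrnpk (12.5%), Srsf10 (10.5%) and Syncrip (10.3%). Adding the copies to the parent left the 3-week differences at -0.78 for Hnrnpa3, -1.04 for Syncrip, -0.42 for Hnrnpa1, -0.47 for Hnrnpk, -0.39 for Srsf3 and -0.45 for Srsf10. In P209L the sum for Srsf3 changed by 0.35. Tardbp overlaps Masp2 and Hnrnpd overlaps Gm17092 on the opposite strand, and the strand setting of the counting is not given in the sources used here.

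Partners of the SR proteins moved in both directions with age and line. Of the 19 tested, Srpk3, a kinase of SR proteins, and Srrm2, a scaffold of nuclear speckles, were higher at 3 weeks (log2 differences of 0.94 and 0.61), and Tnpo1, encoding transportin 1, and the kinase Srpk2 were lower (-0.72 and -0.54). Of 25 core spliceosome genes 4 were higher and 5 lower, among them Snrnp70 (0.50), a U1 protein, and Prpf8 (-1.04), the central scaffold of the catalytic spliceosome. Cell markers moved with this contrast too. Of 6 excitatory neuron markers 4 were lower at 3 weeks, with sums of 1531 and 1648 TPM in the P209L controls and 1635 to 2828 TPM in the 8-week mice. Of 6 oligodendrocyte markers 4 were higher. Of 5 astrocyte markers Aqp4 and Gja1 were lower, of 5 microglial markers Csf1r, Cx3cr1 and P2ry12, and of 4 endothelial markers Flt1. Ttr of the choroid plexus was at 1740 TPM in P209L control 2 and at 8.31 TPM in P209L control 1, and blood transcripts summed to 1518 to 3521 TPM in the 3-week mice and 366 to 862 TPM in the 8-week mice. Their part in the differences of the 34 genes was not tested.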

How the data were processed

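Bulk cortex from 17 mice was analysed. Per the labels, total RNA was prepared with an RNeasy kit and sequenced from stranded total RNA libraries (TruSeq). The authors deposited 1 table of TPM by gene symbol. The submitters' processing notes name Trim Galore, STAR 2.7.1a, GATK 4.0.4.0, RSEM and mm10, and the annotation is not given in the sources used here. TPM keeps no read counts, so the depth is unknown, and neither counting intervals nor detection limits are given. TPM is also a share, so abundant transcripts such as mitochondrial ones shift all others.

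Repeated symbols were summed. Genes with a mean of at least 1 TPM were tested as log2(TPM + 1) with limma 3.58.1 in R 4.3.3 (6 group means in 1 fit, eBayes with trend=TRUE, two-sided), with Benjamini-Hochberg adjustment over all 16265 genes at a threshold of 0.05. Log2 changes are on this scale. Intervals are 95% intervals from the fit. Exact permutation tests (scipy 1.17.1) were two-sided over mice, as the smaller tail doubled. "Called" means past the adjusted threshold. The scripts were tested on simulated data.

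The 34 genes, the further lists and the markers were chosen with earlier results of these data known. Genes were named by rule, up to 8 past the threshold per contrast by p, or the 3 with the smallest p where none passed, together with the 5 highest, the 3 lowest and the FET and TDP-43 genes by level, and up to 5 per further list. The genes of the P209L minus R206W contrast were chosen after their values were seen, as were genes listed for not overlapping. Gene structures came from GENCODE M21, where 34 of 34 symbols matched, and pseudogenes from blastn 2.17.0. Alternatives covered the pseudocount, filter, scaling, weights, samples in the fit, a replicate block and each mouse left out.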

Additional observations from a re-analysis of the deposited data

Results flagged for a closer look

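Dixon's test for 6 samples (critical value 0.625, passed by chance in about 1 in 20 groups) was run on part of the 34 genes. These were the genes singled out in a comparison and the 5 highest by level, and the remaining genes were not checked. In 7 of the checked genes KO control 1 lay farther from the other 5 controls of 8 weeks than the test allows. It was the lowest in each, with Hnrnpa1 at 139 TPM, Hnrnpa2b1 at 413 TPM, Hnrnpk at 242 TPM, Hnrnpu at 208 TPM, Hnrnpul1 at 30.7 TPM, Hnrnpul2 at 53.7 TPM and Srsf5 at 246 TPM. The same mouse had the highest mitochondrial share of TPM (20.1%) and the lowest size factor (0.805, others 0.863 to 1.114).

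In 5 genes every R206W mouse was below its controls and every P209L mouse above its own, which held for 14.7% of the 34 genes and 1.5% of all tested genes. The log2 changes in R206W and P209L were -0.10 and 0.27 for Hnrnpa3, -0.18 and 0.18 for Srsf10, -0.14 and 0.29 for Srsf3, -0.14 and 0.19 for Srsf7, and -0.15 and 0.37 for Tardbp. The difference between the lines, tested after the values were seen, had an adjusted p = 1 in limma for each of the 5. The unadjusted p was 0.00504 for Tardbp, 0.0157 for Srsf3, 0.0193 for Srsf10, 0.0384 for Srsf7 and 0.0581 for Hnrnpa3.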

How the results depend on the processing

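Of 137 recomputed counts of called genes, 128 were within 1.5 times the reported count. The reported count was 0 in every comparison except that at 3 against 8 weeks, where it was 14. Most of the 128 therefore set 0 against 0. The exceptions came from quality weights per sample, from the samples compared at 3 and 8 weeks and from leaving mice out. With sample weights (gene-by-gene arrayWeights, 0.0818 for KO control 1 to 4.05 for KO control 2), 4 genes were called in KO, all lower (11.8%, against 10.1% of all genes called lower), 1 in the KO minus R206W difference (Hnrnpll, -0.36; 1.96% of all genes) and 25 at 3 against 8 weeks (73.5%, against 58.2% of all genes). The latter count was 7 when only its own groups were fitted, 8 with the KO controls alone as the 8-week group, and 6 to 23 with each mouse left out in turn. Without 1 of the P209L controls the other was assumed to vary like the other groups. Of 559 recomputed values, which cover only the genes singled out in each comparison, 547 stayed on the same side of the threshold, 10 were no longer called, 2 became called and 0 reversed. The 10 concerned Srsf10, Hnrnpul1, Hnrnpul2 and Srsf9 at 3 against 8 weeks. The other called genes there, Srsf3, Hnrnpk, Hnrnpc, Hnrnpa1 and Hnrnpa2b1, lost their call under 8 to 14 of 22 alternatives.

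With the replicate number as a block, 12 genes were called at 3 against 8 weeks in place of 14, and 0 in each line. Deviations of same-numbered mice correlated between -0.113 and 0.331. With so few mice in a group, these values cannot tell whether the numbers pair the mice. Dividing by size factors moved the median over all genes from 0.064 to -0.0081 in KO and from 0.13 to -0.0025 between both 8-week control groups. The table holds no depth, and 2 P209L controls limit every value of that line.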
